A study of Sus scrofa with 12 samples.

Results

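The abundance of 9 transcripts of B cells and plasma cells was examined in the infarcted pig heart. The genes were CD37, CD79A, CD79B, MS4A1, JCHAIN, MZB1, POU2AF1, BLK and PAX5, a list of named cell type genes. All 9 were found by symbol among the 35682 gene identifiers counted, of which 15623 could be paired with a symbol. Immunoglobulin heavy and light chain genes could not be reached in this way, because 0 of the paired symbols belonged to one.

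The hearts were those of 6 female young Yorkshire pigs, which carried the numbers 1022, 1322, 1323, 1623, 1922 and 3622. In every pig the LAD coronary artery had been closed with a balloon for 60 min and then reopened. Every pig was also immunosuppressed from day 9 with tacrolimus at 0.75 mg/kg/day, mycophenolate mofetil at 500 mg/day and prednisolone at 20 mg/day, all of which restrain lymphocytes. On day 14 each heart was covered with either vascular organoids of endothelial progenitor and smooth muscle cells or fibrin glue alone. The labels do not say which animal received which, so each zone holds animals of both kinds and the share of the treatment in any difference between animals cannot be told apart. One RNA library came from the border zone beside the infarct and 1 from the remote zone of each animal, 12 in all. The sample titles mark both as Mid, a term that they do not define. The authors took remote zone tissue from the posterior wall. The extraction text of the labels names the border zone for every sample, and the zone used here is that of the sample titles.

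B cells recognise antigen through a membrane immunoglobulin that signals through the CD79A and CD79B chains, and after activation some of them become plasma cells that secrete antibody. In doing so they give up the B cell programme held by PAX5 and expand the secretory apparatus, with MZB1 helping to fold immunoglobulin and JCHAIN linking the units of polymeric IgM and IgA. The healthy heart holds a small resident pool of B cells, and more are known to enter after an infarct.

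The promoter is the place where B cell transcription factors read these genes, and the windows of 250 bases before the RefSeq gene start (Sscrofa11.1) were searched on both strands for a pair of motifs. The first was the octamer ATGCAAAT (ATTTGCAT on the other strand), bound by the POU factors that POU2AF1 assists, and the second was CCCNNGGG, the core of the early B cell factor site. The octamer was present in 1 of 9 members, CD79B, against 1.3% of 20664 promoters. The early B cell factor core was present in 3 of 9 members, CD79B, MS4A1 and POU2AF1, against 16.9% of the same promoters. The windows of a receptor chain with both motifs, of a B cell surface gene with the second motif and of the most abundant member with neither are shown 5′ to 3′ on the strand of the gene, with motif letters in capitals. The CD79B window lies at chr12:15052716-15052965 on the plus strand, the MS4A1 window at chr2:11229061-11229310 on the minus strand and the JCHAIN window at chr8:67448629-67448878 on the minus strand.
CD79B: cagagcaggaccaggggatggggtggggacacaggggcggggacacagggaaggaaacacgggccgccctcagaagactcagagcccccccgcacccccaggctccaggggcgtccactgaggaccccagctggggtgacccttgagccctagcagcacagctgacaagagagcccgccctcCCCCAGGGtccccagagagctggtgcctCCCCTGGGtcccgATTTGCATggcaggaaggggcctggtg
MS4A1: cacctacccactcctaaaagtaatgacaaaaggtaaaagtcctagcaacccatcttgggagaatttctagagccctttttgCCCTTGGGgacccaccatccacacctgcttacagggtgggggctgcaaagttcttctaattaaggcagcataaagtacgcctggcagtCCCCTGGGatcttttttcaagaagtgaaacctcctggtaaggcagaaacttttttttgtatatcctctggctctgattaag
JCHAIN: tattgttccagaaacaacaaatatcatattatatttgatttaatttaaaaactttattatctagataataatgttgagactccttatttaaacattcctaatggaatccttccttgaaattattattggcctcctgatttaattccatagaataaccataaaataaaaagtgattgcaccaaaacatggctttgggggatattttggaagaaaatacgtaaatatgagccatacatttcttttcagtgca
In CD79B the 2 early B cell factor cores started at -68 and -40 from the gene start and the octamer at -27, and in MS4A1 the cores started at -169 and -81. A match is a description of the letters, and no binding was measured.

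Border zone libraries held 15130210 to 30526110 counts in total, and remote zone libraries held 20091415 to 31618680. Levels are given as CPM (read counts scaled to the library total, after TMM normalization), with the raw counts beside low values, and 3 counts, taken as the most that a count of 0 allows, correspond to between 0.0883 and 0.201 CPM over the libraries. These limits cover counting error only. The library with the lowest total, from the border zone of animal 3622, stood apart. It held counts for 6127 of the 11724 genes that were at 0 in every other library (52.3%), with a median of 4 counts. The fold changes and correlations of members that rest on it are given with and without it. The cardiomyocyte genes used to check the tissue summed to between 8262 and 47387 CPM in the border zone and between 38707 and 75826 CPM in the remote zone. The lowest of these sums was that of the border zone of animal 1022, where the fibroblast genes summed to 49815 CPM, the highest of all libraries, so this library held less muscle RNA and more fibroblast RNA than the rest.

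Only part of the B cell and plasma cell programme was present at levels that could be measured. Per kilobase of RefSeq exon, the median level over the 12 libraries was highest for JCHAIN (3.16 CPM per kb), followed by CD37 (1.21), MZB1 (0.676), CD79A (0.632), CD79B (0.202), POU2AF1 (0.169), MS4A1 (0.0740), BLK (0.0355) and PAX5 (0.00692). JCHAIN was above CD37 in 12 of 12 libraries. The ranges of all neighbours in this order overlapped, CD79B was above POU2AF1 in 6 of 12 libraries, and MS4A1 was above BLK in 6 of 12. Among further genes of these cells, TCL1A, a marker of naive B cells, had 0 counts in all 12 libraries. Of the members, JCHAIN had 2740 counts over all 12 libraries, CD37 had 1675, MZB1 had 447 and the other 6 had between 47 and 207.

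JCHAIN (ENSSSCG00000035379, chr8:67439405-67448628, minus strand) was the only member with a higher border zone level in every animal. Positions of the genes are those of RefSeq on Sscrofa11.1, the build of the counts. In the border zone it measured 21.8 CPM in animal 1022, 5.60 in 1322, 4.33 in 1323, 33.2 in 1623, 6.31 in 1922 and 11.8 in 3622. In the remote zone of the same animals it measured 4.04, 3.92, 3.42, 3.59, 3.95 and 4.68 CPM. The remote zone values lay close together and the border zone values spread widely, with animals 1623 and 1022 far above the rest. The zones overlapped at 1 point, since the border zone of 1323 lay below the remote zone of 3622, and the other 5 border zone libraries were above all remote zone libraries. The difference within an animal ranged from 0.33 to 3.18 on the log2 scale, with a median of 0.99. Among all genes tested, 11.7% had 6 of 6 animals higher, and 1.99% had no overlap between zones. The fitted log2 fold change was 1.82 (SE 0.45, n = 6 per zone) with an adjusted p of 0.0501 by edgeR's quasi-likelihood test, just above the threshold of 0.05. With a replicate block for the animal the log2 fold change was 1.41 with an adjusted p of 0.0879 by edgeR. With library totals in place of TMM factors the adjusted p of edgeR was 0.0215, and with DESeq2 it was 0.00333. Without animal 1322 the adjusted p of edgeR was 0.0476, and without each of the other animals it was between 0.0956 and 0.158.

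MZB1 (ENSSSCG00000029239, chr2:141277541-141279652, minus strand), the endoplasmic reticulum chaperone of antibody-secreting cells, was high in 3 border zone libraries only. Its border zone levels were 4.10 CPM (124 counts) in animal 1022, 0.487 (10 counts) in 1322, 0.589 (20 counts) in 1323, 3.02 (88 counts) in 1623, 0.146 (3 counts) in 1922 and 7.76 (127 counts) in 3622. Its remote zone levels were 0.554, 0.533, 0.691, 0.725, 0.156 and 0.468 CPM in the same order, from 3 to 21 counts. The 3 high libraries were those of 1022, 1623 and 3622, and in the other 3 animals the border zone lay slightly below the remote zone. The log2 fold change was 2.33 (SE 0.77) with an adjusted p of 0.101 by edgeR. It was 1.60 with an adjusted p of 0.151 when the animal entered edgeR as a replicate block, and 1.66 with an adjusted p of 0.196 without the border zone library of 3622. With library totals the adjusted p of edgeR was 0.0466, and DESeq2 gave 0.0301. In RefSeq MZB1 overlaps SLC23A1 on the same strand, whose counts did not exceed 21 in any library, and a long noncoding RNA on the opposite strand, whose reads in the overlap cannot be told apart.

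POU2AF1 (ENSSSCG00000015016, chr9:39121422-39144636, minus strand), the coactivator of octamer factors in B cells and plasma cells, was near the limit of detection. It had 24, 0, 3, 19, 2 and 10 counts in the border zone of animals 1022, 1322, 1323, 1623, 1922 and 3622, and 6, 1, 0, 6, 5 and 2 counts in the remote zone. The highest levels, from 0.611 to 0.793 CPM, were in the border zone of the same 3 animals that were high for MZB1, and the zones overlapped. Without a filter on low counts its log2 fold change was 1.21, with an adjusted p of 0.413 by edgeR.

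**Figure D1:**
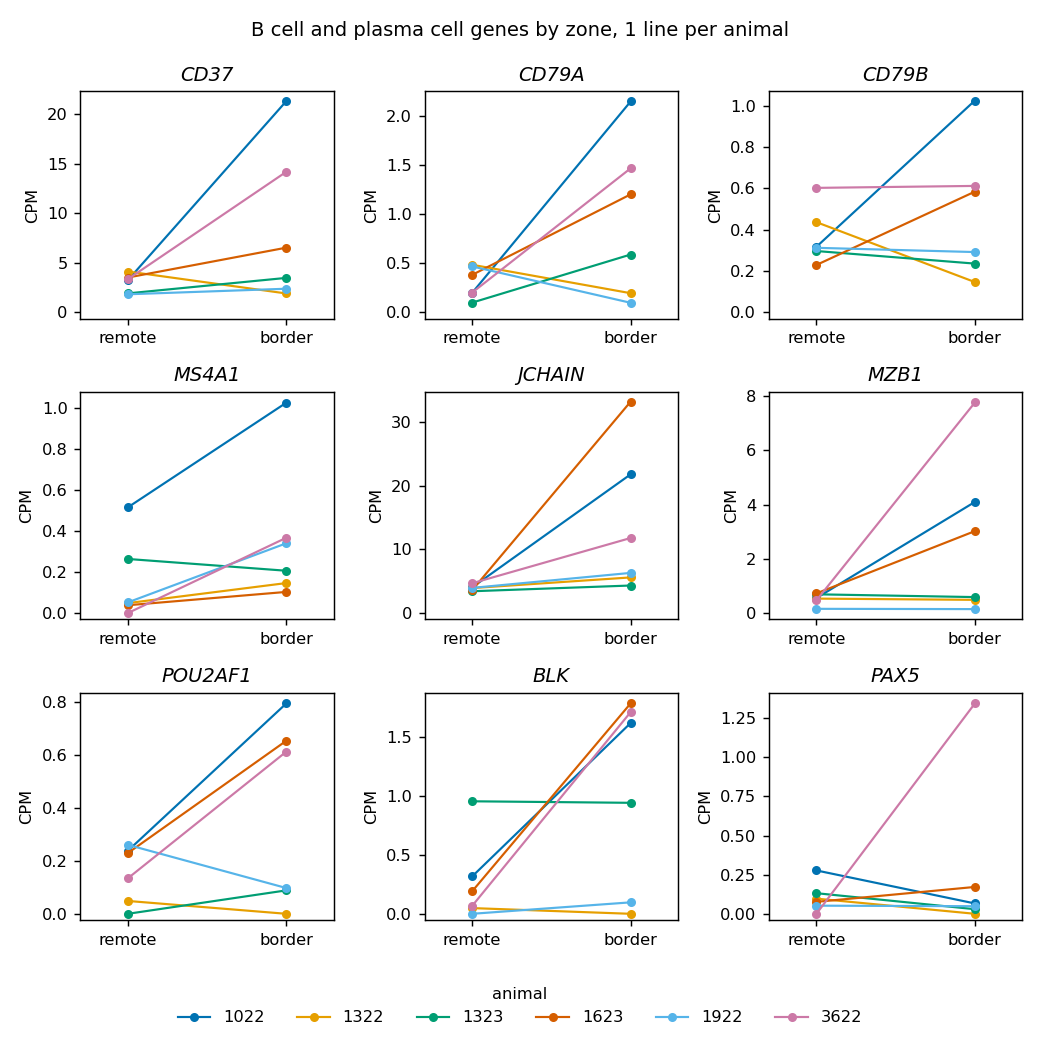
CPM of each of the 9 genes in every library, on a linear axis of its own, with border zone and remote zone of 1 animal joined by a line. The line of JCHAIN goes up towards the border zone in 6 of 6 animals and that of MZB1 in 3, and the zones overlap for all 9 genes.

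The chains of the B cell receptor were low in both zones. CD79A (ENSSSCG00000033684, chr6:49996116-49999294, minus strand), which carries the signal of the receptor into the cell, had 65, 4, 20, 35, 2 and 24 counts in the border zone of animals 1022, 1322, 1323, 1623, 1922 and 3622, between 0.0971 and 2.15 CPM. In the remote zone it had 5, 10, 3, 10, 9 and 3 counts, between 0.0988 and 0.484 CPM. Its border zone exceeded the remote zone in 4 of 6 animals and was lower in 1322 and 1922, where the border zone held 4 and 2 counts. Without a filter its log2 fold change was 1.55 (unadjusted p of 0.0326, adjusted p of 0.190 by edgeR). With the replicate block as well it was 1.28 (unadjusted p of 0.118, adjusted p of 0.448).

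CD79B (ENSSSCG00000017283, chr12:15052966-15056441, plus strand), the partner of CD79A in the same receptor, was higher in the border zone of some animals and lower in that of others. It had 31, 3, 8, 17, 6 and 10 counts in the border zone and 8, 9, 9, 6, 6 and 9 in the remote zone. Only the border zone libraries of 1022 (1.02 CPM) and 3622 (0.611 CPM) were above all remote zone libraries, the latter by little, since the remote zone of 3622 held 0.602 CPM. The median difference within an animal was -0.029 on the log2 scale (0.31 with library totals), with 3 animals higher and 3 lower. Without a filter its log2 fold change was 0.34 with an adjusted p of 0.714 by edgeR, and it was -0.053 without animal 1022.

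MS4A1 (ENSSSCG00000021812, chr2:11216238-11229060, minus strand), which encodes the B cell surface protein CD20, had 31, 3, 7, 3, 7 and 6 counts in the border zone and 13, 1, 8, 1, 1 and 0 in the remote zone. Animal 1022 held the highest count of both zones. The border zone was higher in 5 of 6 animals and lower in 1323, on counts of at most 8 in each library outside 1022. In RefSeq it overlaps MS4A4A on the opposite strand, so that reads of the overlap cannot be told apart. Without a filter its log2 fold change was 1.13 with an adjusted p of 0.409 by edgeR.

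BLK (ENSSSCG00000027568, chr14:14688489-14745946, plus strand), the SRC family kinase that acts just below the receptor, had 49, 0, 32, 52, 2 and 28 counts in the border zone and 8, 1, 29, 5, 0 and 1 in the remote zone. Animal 1323 stood out, with 0.942 CPM in its border zone and 0.955 CPM in its remote zone, whereas the remaining remote zone libraries reached at most 0.317 CPM. In 1022, 1623 and 3622 the border zone held between 1.62 and 1.79 CPM, above all remote zone libraries. Without a filter its log2 fold change was 1.82 with an adjusted p of 0.218 by edgeR, and with the replicate block it was 2.05 with an adjusted p of 0.178. It was 2.89 without animal 1323 and between 1.47 and 1.87 without each of the other animals.

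CD37 (ENSSSCG00000033849, chr6:54431413-54448195, plus strand), a tetraspanin of mature B cells that other leukocytes also carry, was the second most abundant member. Its border zone levels were 21.3 CPM in animal 1022, 1.90 in 1322, 3.47 in 1323, 6.52 in 1623, 2.38 in 1922 and 14.2 in 3622. Its remote zone levels were 3.25, 4.12, 1.91, 3.51, 1.82 and 3.34 CPM. The border zone was higher in 5 of 6 animals, 3 border zone libraries were above all remote zone libraries, and animal 1322 went the other way. The log2 fold change was 1.47 (SE 0.54), with an unadjusted p of 0.0170 and an adjusted p of 0.130 by edgeR. With the replicate block it was 1.01 (unadjusted p of 0.0586, adjusted p of 0.183 by edgeR). Without animal 1022 the log2 fold change was 0.94 with an adjusted p of 0.380. CD37 overlaps TEAD2 on the opposite strand in RefSeq, and since the libraries did not keep the strand, reads from the overlap cannot be told apart. TEAD2 had a log2 fold change of -0.51 (adjusted p of 0.0794 by edgeR).

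PAX5 (ENSSSCG00000036086, chr1:237574938-237785454, minus strand), the transcription factor that holds B cell identity, had 2, 0, 1, 5, 1 and 22 counts in the border zone and 7, 2, 4, 2, 1 and 0 in the remote zone. The 22 counts in the border zone of animal 3622 made up 81.0% of its summed border zone CPM. That library held at least 22 counts for 343 of the 11724 genes at 0 in all other libraries. Without a filter the log2 fold change of PAX5 was 1.17 (adjusted p of 0.473 by edgeR), and it was -0.73 (adjusted p of 0.660) without this library. In 4 of 6 animals PAX5 was lower in the border zone.

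Whether a member passed the test between zones depended on the tool, the scaling and the animals. Only CD37, JCHAIN and MZB1 passed the filter on low counts, which keeps a gene that is high in either zone. Of these 3, 0 had an adjusted p under 0.05 by edgeR, against 2.06% of all 13844 genes tested that were called higher in the border zone. All 3 had an unadjusted p under 0.05 and were higher there, against 17.0% of all genes. The shares in this paragraph count only genes that were higher in the border zone. In either direction, 3425 of 13844 genes had an unadjusted p under 0.05 by edgeR. With no filter these were 7776 of 30085 genes, and with the replicate block 4069 of 13844. With no filter 0 of 9 were called, against 0.459% of 30085 genes, and 4 had an unadjusted p under 0.05 (CD37, CD79A, JCHAIN and MZB1), against 21.4%. DESeq2 called 2 of 9 higher, JCHAIN and MZB1, against 8.42% called higher of the genes that it gave an adjusted p. With library totals edgeR called the same 2 of 3, against 11.2%. With the animal as a replicate block edgeR called 0 of 3, against 0.289%, with 2 at an unadjusted p under 0.05 (JCHAIN and MZB1), against 17.0% of all genes. With the block and no filter it called 0 of 9, against 0.492%, with 3 at an unadjusted p under 0.05 (BLK, JCHAIN and MZB1), against 10.3%. Without animal 1322, edgeR called 1 of 5 (JCHAIN), against 3.64%.

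The direction of the low members was also that of most other low genes. Without a filter all 6 members under it had a log2 fold change above 0, with a median of 1.19. Of the 2809 genes with summed counts in the same range (47 to 207), 80.0% were above 0, with a median of 0.93. Without the border zone library of 3622, 5 of the 6 members were above 0, as were 65.1% of the genes in the range, with medians of 1.12 and 0.41. By comparison, the median log2 fold change of the 13844 genes that passed the filter was 0.04, and 0.32 with library totals. In bulk tissue, more cells of a type and more RNA per cell cannot be told apart.

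**Figure D2:**
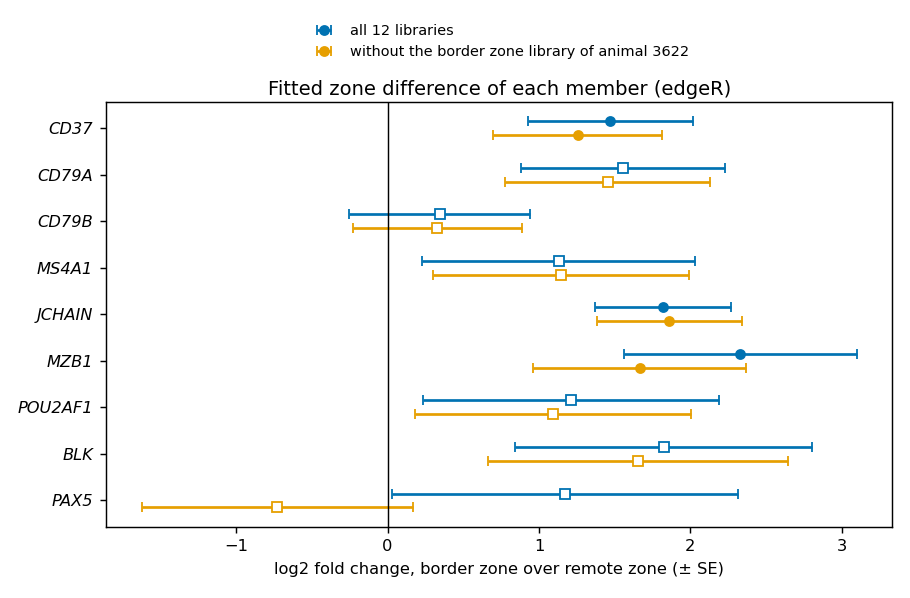
Log2 fold change of the border zone over the remote zone by edgeR for each of the 9 genes, with bars of 1 SE, from all 12 libraries (blue) and without the border zone library of animal 3622 (orange). Filled circles passed the filter and open squares were fitted without one. PAX5 goes from 1.17 to -0.73 when that library is left out, and MZB1 from 2.33 to 1.66.

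Border zone libraries with high members also held more leukocyte RNA. PTPRC, which encodes the leukocyte antigen CD45, measured between 4.29 and 59.5 CPM in the border zone and between 3.43 and 8.55 CPM in the remote zone, with a log2 fold change of 1.66 and an adjusted p of 0.116 by edgeR. The levels of 4 members per 100 PTPRC counts were therefore compared within each library. CD37 ranged from 35.8 to 131.8 per 100 PTPRC counts in the border zone, with a median of 46.2, and from 38.0 to 93.4 in the remote zone, with a median of 53.1. By this measure 2 of 6 animals were higher in the border zone, against 5 of 6 in CPM. CD79A had medians of 5.70 in the border zone and 4.89 in the remote zone, with 4 of 6 animals higher in the former.

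The plasma cell genes differed between animals on this scale. JCHAIN ranged from 36.6 to 189.8 per 100 PTPRC counts in the border zone, with a median of 118.6, and from 47.2 to 115.2 in the remote zone, with a median of 79.6, and 4 of 6 animals were higher in the border zone. Animal 1623 held the highest border zone value, 1322 (130.7) and 1922 (127.5) were also above all remote zone values, and animal 1022, second highest in CPM, held the lowest. MZB1 was between 2.94 and 17.3 in the border zone of 5 animals and at 72.2 in that of 3622, against 4.55 to 14.2 in the remote zone, with medians of 9.81 and 10.2 and 3 of 6 animals higher in the border zone. The border zone of 3622 was also the highest of its zone for CD37 (131.8) and CD79A (13.6). The ratio of JCHAIN to CD37 was 5.09 JCHAIN counts per CD37 count in the border zone of 1623, 2.95 in that of 1322, 2.65 in that of 1922, 1.25 in that of 1323, 1.02 in that of 1022 and 0.832 in that of 3622. It was between 0.953 and 2.17 in the remote zone, below the 3 highest border zone values. These ratios are given as descriptions, with no test.

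**Figure D3:**
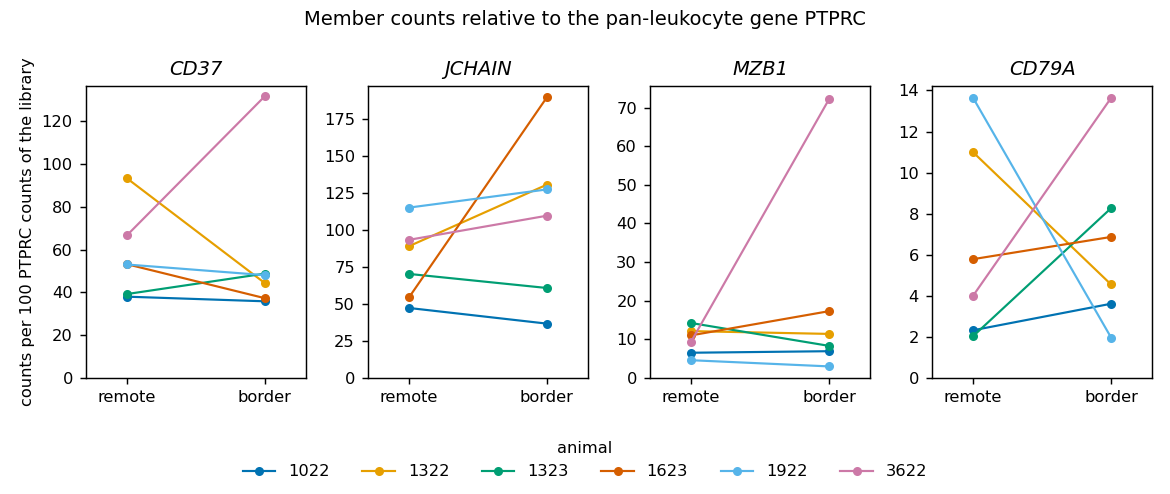
Counts of CD37, CD79A, JCHAIN and MZB1 per 100 counts of PTPRC in every library, on linear axes, with both zones of 1 animal joined by a line. JCHAIN reaches 189.8 in the border zone of animal 1623 and MZB1 72.2 in that of 3622, and all other MZB1 values are at most 17.3.

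The members were also compared with each other across the 12 libraries, which share animals in pairs. Pearson's r of log2 CPM was above 0 for all 36 pairs of members and ranged from 0.27 (CD79A and MS4A1) to 0.89 (CD37 and MZB1), with a median of 0.64. The share of other gene pairs above 0 was not counted. By rank (Spearman's rho), JCHAIN and MZB1 had 0.26 against an r of 0.74, and JCHAIN and PAX5 had -0.02 against 0.30. For MZB1 and BLK rho was 0.84 against an r of 0.81. Without the border zone library of 1022, 34 of 36 pairs were above 0, with CD79A and MS4A1 at -0.10 and CD79B and MS4A1 at -0.16. Without the border zone library of 3622 all 36 stayed above 0, from 0.11 to 0.85 with a median of 0.56, and the pairs with PAX5 were lower, such as CD37 and PAX5 (0.51 with and 0.18 without it), CD79A and PAX5 (0.41 and 0.11) and MZB1 and PAX5 (0.65 and 0.31). Over the same libraries the genes most like JCHAIN were SPP1, a secreted matrix protein made by activated macrophages among others (r of 0.919), SFRP4, a secreted WNT-binding protein (0.913), ACP5, an acid phosphatase of osteoclasts and macrophages (0.897), the ETS factor ETV4 (0.895) and TK1, a thymidine kinase of dividing cells (0.894). Without the border zone libraries of 1022 and 1623 the r of these genes was between 0.79 and 0.85. Over all 12 libraries their Spearman's rho with JCHAIN was between 0.66 (ETV4) and 0.92 (ACP5). These values pool both zones, and the log2 fold changes of the 5 genes by edgeR lay between 1.60 (TK1) and 8.48 (SPP1). The part of the zone difference in these correlations was not tested. No such list was made for B cells, since CD79B, CD79A and MS4A1 did not pass the filter.

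The other genes of B cell receptor signalling lay above 0 as a group but none passed the test. All 15 tested genes of this list had a log2 fold change above 0, with a median of 1.63, against 53.3% of all genes tested and a median of 0.04. Of the 15, 0 were called by edgeR, against 2.06% of all genes called higher. PIK3AP1, an adaptor that links the receptor complex to PI3 kinase, was highest at 2.26. When the border zone library of animal 1022 was left out, 14 of 15 genes were above 0, with a median of 0.74. Macrophages and other myeloid cells use many of these genes as well. Of 14 tested genes of B cell identity, 11 were above 0 with a median of 0.54, from -0.68 for BCL11A to 2.13 for POU2F2, both transcription factors, and 0 were called.

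Of 18 tested genes of plasma cells and protein secretion, 14 were above 0, with a median of 0.39, and 2 rose in the border zone, against 53.3% above 0 and 2.06% called higher of all genes. SDC1, which encodes the surface proteoglycan CD138 found on plasma cells and on epithelial and stromal cells, rose by a log2 fold change of 3.92 (SE 0.84, adjusted p of 0.0338 by edgeR). TXNDC5, a protein disulphide isomerase of the endoplasmic reticulum that fibroblasts also express, rose by 1.47 (SE 0.35, adjusted p of 0.0493). With the replicate block both had an adjusted p of 0.0807. SDC1 measured 61.5 CPM in the border zone of 1022 and between 2.0 and 8.10 CPM in that of the other animals, and TXNDC5 measured 394 CPM in 1022 and between 66.5 and 123 CPM in the others. Without the border zone library of 1022 the log2 fold change by edgeR was 2.29 for SDC1 (adjusted p of 0.0106) and 0.92 for TXNDC5 (adjusted p of 0.00735). Without animal 1323, 1623, 1922 or 3622 neither gene was called, with adjusted p from 0.0825 to 0.157 by edgeR. The call of SDC1 was also lost with no filter (adjusted p of 0.0877 by edgeR), and that of TXNDC5 with DESeq2 size factors (0.0582), without mitochondrial genes (0.0511), with no filter (0.0624), with at least 10 counts in every library (0.0581) and without the border zone library of 3622 (0.0595) or 1623 (0.0651). The lowest of the list was SEC11C, a subunit of the signal peptidase, at -0.26. Of 7 tested genes of survival and homing signals, 6 were above 0, and 1 rose, against the same shares of all genes. IL21R, the receptor for a cytokine that drives plasma cell formation, rose by 2.96 (SE 0.71, adjusted p of 0.0493, and 0.0814 with the replicate block). IL21R measured 9.12 CPM in the border zone of 1022 and between 0.243 and 3.18 CPM in that of the other animals. Without that library its log2 fold change was 2.11 with an adjusted p of 0.0734 by edgeR, and with 1 animal left out it was called only without 1322, among the 5 animals for which it passed the filter. Its call was also lost with DESeq2 size factors (adjusted p of 0.0570 by edgeR), without mitochondrial genes (0.0511), with no filter (0.0615) and without the border zone library of 3622 (0.0688) or 1623 (0.0706). TNFSF13, which encodes the plasma cell survival factor APRIL, was lowest at -0.33. PIGR, which carries polymeric immunoglobulin across epithelia, had 0 counts in 7 of 12 libraries.

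Markers of other leukocytes also lay above 0, and their part in the results was not tested. All 8 macrophage genes were above 0 with a median of 1.55, from 1.11 for C1QA to 3.20 for CD68, and 0 were called. Their summed level was between 144 and 1643 CPM in the border zone, highest in 1022, and between 126 and 268 CPM in the remote zone. All 9 tested genes of T cells and NK cells were above 0 with a median of 0.59, from 0.06 for GZMA (1 of its 2 identifiers passed the filter) to 1.63 for NKG7, and 0 were called. Their summed level was between 10.2 and 84.1 CPM in the border zone and between 10.3 and 19.2 CPM in the remote zone. All 7 pan-leukocyte genes were above 0 with a median of 1.66, from 0.88 for CORO1A to 2.12 for CD48, and 0 were called. Their summed level was 639 CPM in the border zone of 1022, against a border zone median of 113.4 CPM, and 1022 was also the highest for T cells and NK cells. Without this library the medians were 0.62 for macrophages, 0.32 for T cells and NK cells, with 7 of 9 above 0, and 0.69 for pan-leukocyte genes.

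The fibroblast genes were the list with the most calls. Of 6 fibroblast genes 5 rose in the border zone, against 2.06% of all genes, among them COL1A1 by 4.05, with a median of 2.48, and 1 of them, POSTN, was called with the replicate block. COL1A1 measured 30498 CPM in the border zone of 1022 and between 878 and 4009 CPM in that of the other animals. Leaving out this library gave a log2 fold change of 2.49 for COL1A1, a median of 1.75 for the list and 5 calls. Leaving out the border zone library of 1623 or of 3622 gave 3 calls, and without both libraries of animal 1323, 1623, 1922 or 3622 none of the 5 was called, with adjusted p from 0.0839 to 0.159 by edgeR. With no filter COL1A1 (adjusted p of 0.0609 by edgeR) and POSTN (0.102) lost their calls, and the other called genes kept theirs. The summed level of the 6 fibroblast genes was between 2477 and 49815 CPM in the border zone and between 842 and 2151 CPM in the remote zone. All 6 cardiomyocyte genes were below 0 with a median of -0.56, from -1.10 for TNNI3 to -0.05 for ACTC1, and 0 were called. Leaving out the border zone library of 1022, 1623 or 3622 each put 1 of the 6 above 0, with medians of -0.36, -0.62 and -0.65. Of 4 genes of lymphatic vessels 3 were above 0, with a median of 0.12. Both tested dendritic cell genes (median of 0.95) and both tested genes of cell division (median of 2.12) were above 0, and none of these 3 lists held a call.

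**Figure D4:**
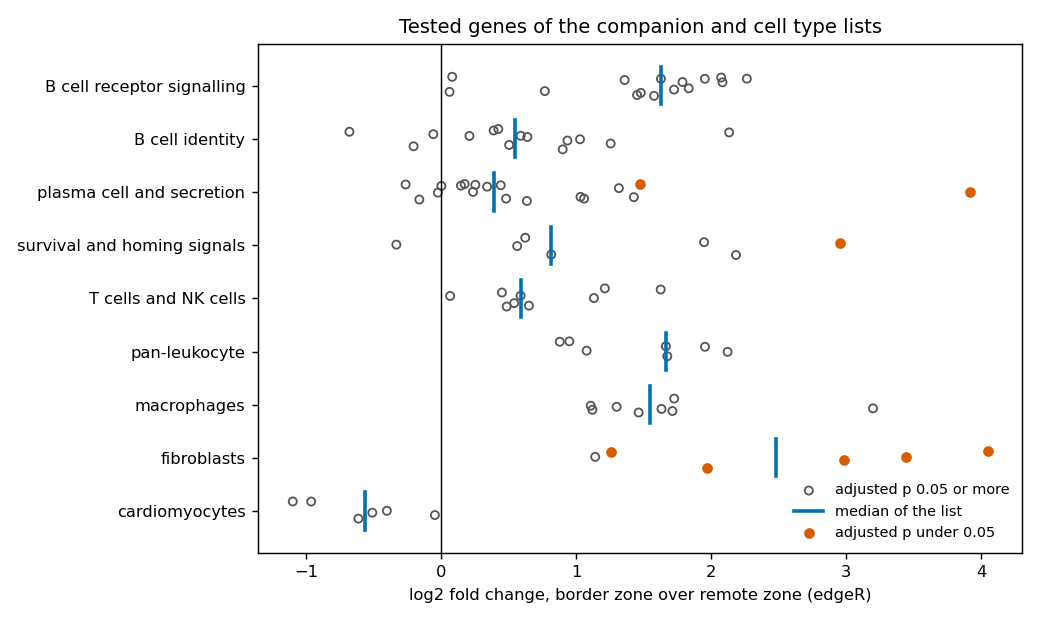
Log2 fold change, border zone over remote zone, of every tested gene in 9 lists, 1 point per gene, with the median of the list as a bar and genes of adjusted p under 0.05 filled. The list of B cell receptor signalling has a median of 1.63 and no call, and the fibroblast list a median of 2.48 and 5 calls.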

How the data were processed

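Border and remote zone RNA of 6 pigs was sequenced. The authors made poly(A)-enriched libraries without strand information, aligned the reads to Sscrofa11.1 with STAR and counted them per gene with featureCounts. The deposited values are raw counts per Ensembl gene, with no normalization. The treatment of each animal is not in the labels and was not used.

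Symbols came from a table of pig gene names, and exon lengths, positions and promoter windows from RefSeq. The tests used edgeR 4.0.16 in R 4.3.3 (filterByExpr, TMM, robust quasi-likelihood test, zone as the only term, Benjamini-Hochberg adjustment over the 13844 genes tested, threshold 0.05), with limma 3.58.1, and DESeq2 1.42.0 as an alternative. Tables were made with pandas 2.3.3 and NumPy 2.4.6 under Python 3.11.15. SE is the log2 fold change over the square root of F. Log2 CPM had a prior count of 2. The scaling, the filter and the block can each change a call, and PCR copies were not removed from the counts.

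The members and lists were chosen with earlier results of these data known. The genes named are the 9 members, genes of the other lists past the threshold (otherwise the highest and lowest of a list), markers at 0 in most libraries and the 5 genes most like JCHAIN. Dendritic cell, lymphatic vessel and cell division genes are given by counts and medians only, and COL1A1 and POSTN stand for the 5 fibroblast genes called. PTPRC, TEAD2 and SLC23A1 were named outside this rule, after their values were seen. SEC11C and TNFSF13, the lowest of lists that held calls, were also named outside it. Some genes that the rule names are not reported here.

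Libraries that carry 1 number come from 1 animal. Their deviations from the zone means had a Pearson r across genes of -0.03 (animal 1022) to 0.57 (animal 1323), 0.35 on average and over 0.1 in 4 of 6 animals. The alternatives were a replicate block for the animal, DESeq2 (Wald test), its size factors used in edgeR, library totals, no filter, a minimum of 10 counts in every library, removal of mitochondrial genes, a prior count of 0.5 and leaving out each animal. The steps were checked on a simulated border zone to remote zone comparison of 13844 genes, in which edgeR recovered 92% of 100 genes changed 4-fold and 28% of 100 changed 2-fold.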

Additional observations from a re-analysis of the deposited data

Results flagged for a closer look

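The remote zone library of animal 1922 lay apart from the other 5 remote zone libraries for MZB1, at -2.06 log2 CPM (3 counts), where the next lowest library was at -0.86. The gap was 0.686 of the whole range of the zone. A gap of this size was looked for in 18 groups, the 2 zones of each of 9 genes, and found in 1, and chance gives about 1 in 20.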

How the results depend on the processing

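The number of genes called between the zones depended on nearly every choice. Against 287 genes (285 higher and 2 lower in the border zone), the replicate block gave 41, the DESeq2 Wald test 1719, library totals 1551, no filter 139 and at least 10 counts in every library 149. Leaving out 1 animal gave 0 to 519 genes, with 0 by edgeR without 1623 or 3622 (2662 and 2448 at an unadjusted p under 0.05), 3 without 1323, 15 without 1922, 163 without 1022 and 519 without 1322. Of the settings chosen after seeing the data, leaving out only the border zone library of 3622 gave 156, that of 1623 gave 157 and that of 1022 gave 307. The number of members called was 2 by DESeq2 and 2 with library totals, and 0 to 1 with 1 animal left out. The replicate block changed no call of a member.

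The log2 fold change of JCHAIN was 1.76 by DESeq2 and 2.18 with library totals, both past the threshold, and 1.33 to 1.96 with 1 animal left out, past the threshold only without 1322. That of MZB1 was 2.30 by DESeq2 and 2.65 with library totals, both past it. PAX5 was -0.73 without the border zone library of 3622, -0.17 with the replicate block, both without a filter, and -0.96 to 1.91 with 1 animal left out, negative only without 3622. CD79B was -0.053 to 0.59 with 1 animal left out, negative only without 1022. The cause was not tested. All other fold changes of the members, 93 in all, kept their direction and their side of the threshold, and all 81 alternative medians over animals moved by less than the spread between animals. Some of these changed sign, in 3 settings to -0.063 for MZB1 without 1022, 1623 or 3622, and in 4 settings for CD79B to 0.31 with library totals and 0.020 without 1322, 1323 or 1922. For 6 of 9 members the depth limits the comparison, since their summed counts over 12 libraries did not exceed 207. The labels give separate animals, so the spread is that between animals.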
